A study of Mus musculus with 10 samples.

Results

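The genes described here are 44 members of the machinery that opens replication origins and copies DNA at the replication fork. They were listed by name and function, with earlier results of these data known, and read from both tables of regenerating mouse liver in the series. All 44 were found among the 55487 gene identifiers of each table. By role they were 6 subunits of the MCM2-7 helicase, 6 genes of origin recognition and licensing, 9 of helicase activation and firing, 6 of the sliding clamp and its loader, 3 subunits of the single-strand binding protein RPA, 8 subunits of polymerases and primase, 2 enzymes of Okazaki fragment maturation, and 4 of chromatin assembly and S phase histone supply.

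Both tables come from C57BL/6J mice, 8 weeks old and labelled male, and all mice had partial hepatectomy (PHx), in which most liver is cut away and the rest grows back. In the diet experiment, 7 days on chow or on a high-fat diet (HFD) preceded PHx, and liver was collected 40 hours after it, from 3 mice in each group. In the inhibitor experiment, mice were given SSO at 40 mg/kg or the solvent alone (vehicle) 1 day before PHx, and liver was collected 48 hours after it. The labels give 8 mice in each of these groups, while 4 libraries were deposited for each; how libraries relate to mice is not given, so a p-value in that experiment reflects only how far its libraries differ, which may be technical. SSO is not spelled out in the labels, and no group without PHx is in either table.

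A cell prepares to replicate in G1, when the origin recognition complex with Cdc6 and Cdt1 loads the MCM2-7 ring onto DNA. At the start of S phase the kinase Cdc7 with its activator Dbf4, and then Cdc45 and the GINS complex, turn the loaded rings into moving helicases. Polymerases tethered by the PCNA clamp follow the fork, and CAF-1 puts nucleosomes behind it. Hepatocytes rest in G0 in healthy adult liver and enter S phase in large numbers after PHx, and many of these genes are transcribed at the G1 to S transition under E2F factors.

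Depth was 31.9 to 39.9 M counts a library for chow and HFD, and 25.2 to 30.4 M for vehicle and SSO. A gene without counts may stand at up to 3 counts. Divided by the unscaled library totals, that floor is 0.0752 to 0.0940 CPM (counts per M counts) in the diet and 0.0987 to 0.119 CPM in the inhibitor experiment. All other CPM values use scaled library sizes, so on their scale the floor differs from these values by library. The hepatocyte markers were found with counts in every library, 7 of 7 genes summing to 50216 to 105681 CPM. Ddx3y, a Y-linked gene, was at 55.0 to 76.3 CPM in the diet libraries but at 0 counts in the 8 inhibitor libraries, where Xist, transcribed from the inactive X chromosome, stood at 698 to 1772 CPM; vehicle and SSO libraries alike go against their label of male mice. Some libraries stood apart within their group. In chow 3 the replication genes were low, and vehicle 1 and vehicle 3 were high beside vehicle 2 and vehicle 4. Values without chow 3, or without both vehicle 1 and vehicle 3, therefore stand beside the results of each role. Those libraries were chosen after the members' values were seen, so a move of most fold changes toward 0 follows from the choice.

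In the diet experiment the replication genes were, with 1 exception, not separated from chow by the test. Dbf4, the activating subunit of the Cdc7 kinase, rose about 5.10-fold on HFD and was the member called at an adjusted p under 0.05 in edgeR's quasi-likelihood test, 1 of 43 tested. Over all 15589 genes tested, 2.32% were called, 1.6% higher and 0.718% lower. The fitted log2 fold change (HFD minus chow) was above 0 for 38 members and below 0 for 5, where 47.3% and 52.7% of all genes were, with a median of 0.43 against -0.02 for all genes tested. At an unadjusted p under 0.05, 9 members were higher and 1, Mcm10, was lower, where 7.52% and 7.47% of all genes were. The HFD libraries lay wholly above the chow libraries for 13 members and wholly below for 2, Mcm10 and Pold2, against 11.2% and 10.8% of all genes. Without chow 3 the median was 0.15, with 31 members above 0 and 13 below of the 44 tested then. Fen1, the flap endonuclease of Okazaki fragments, did not pass the filter on low counts, with 4 to 19 counts a library. Of its exon length 84.2% overlaps Gm10143 and Tmem258 on the other strand. As strand use in counting is not given, its level is uncertain in both experiments.

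In the inhibitor experiment nearly all members were lower with SSO, and none passed the threshold. The fitted log2 fold change (SSO minus vehicle) was below 0 for 41 of 42 members tested, where 53% of all genes were, and above 0 for Mcm10 alone, where 47% were. The median was -0.92 against -0.04 for all genes. Called by edgeR's quasi-likelihood test were 0 of 42 members, where 0.133% of all 15788 genes tested were called lower and 0.317% higher; at an unadjusted p under 0.05, 29 were lower and 0 higher, against 12.5% and 7.96% of all genes. DESeq2 called 19 members lower, and 3.97% of all genes. The smallest edgeR adjusted p among members was 0.0789, and 18 members had one under 0.15. SSO libraries lay wholly below the vehicle libraries for 12 members, against 5.62% of all genes. Fen1 and Orc1, the largest subunit of the origin recognition complex, were not tested: Fen1 had 31, 0, 34 and 11 counts in vehicle and 0, 0, 3 and 7 in SSO, and Orc1 73, 0, 32 and 2 in vehicle and 4, 7, 8 and 3 in SSO.

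The calls depended on which vehicle libraries were used, for the members and for all genes. Without vehicle 2, 27 of 43 members were called lower by the same edgeR test, where 9.23% of all genes were. Without vehicle 4, 6 of 42 were (Mcm5, Mcm7, Cdt1, Pole, Chaf1a and Chaf1b), where 1.43% of all genes were. Without both vehicle 1 and vehicle 3 none of 42 was called, where 13 of 16692 genes were called lower and 49 higher. At an unadjusted p under 0.05 were 14 members, and 37 of 42 were below 0. The shares of all genes for these counts were not taken at this setting. The members' median was -0.52, against -0.01 for all genes. That pair was chosen after the data were seen. Vehicle 1 and vehicle 3 also stood apart in markers of some other cells. The monocyte and neutrophil markers, 6 of 6 with counts in each library, summed to 276, 29.1, 312 and 52.0 CPM in vehicle 1 to 4 and to 10.0 to 23.2 CPM in SSO. Their mean log2 (CPM + 0.5) was 4.26, 1.16, 4.62 and 1.41 in vehicle and 0.88 to 1.96 in SSO. By that measure vehicle 2 and vehicle 4 lay within the SSO range. Stellate cell markers, 6 of 6 with counts, summed to 424, 119, 389 and 185 CPM in vehicle and 146 to 239.5 CPM in SSO, and endothelial markers, 7 of 7 with counts, to 202, 116, 149 and 87.9 CPM and 101 to 182 CPM. Cholangiocyte markers, 5 of 5 with counts, summed to 134, 44.3, 163 and 41.2 CPM in vehicle and 33.1 to 43.2 CPM in SSO. Most of that sum was Spp1 (117, 38.3, 148 and 30.8 CPM in vehicle), while Krt19 was at 1.29, 0.635, 1.88 and 2.26 CPM and did not set vehicle 1 and vehicle 3 apart. Kupffer cell markers, 8 of 8 with counts, summed to 637, 158, 554 and 149 CPM in vehicle and 266 to 459 CPM in SSO. Erythroid markers were lowest in vehicle 1 and vehicle 3, at 52.5, 197, 76.1 and 95.4 CPM in vehicle 1 to 4. B cell markers, at 10.6, 13.6, 16.9 and 4.39 CPM, did not set vehicle 1 and vehicle 3 apart. T and NK cell markers were at 9.35, 8.17, 10.4 and 3.36 CPM, with vehicle 2 close to vehicle 1. The mean log2 (CPM + 0.5) of the 7 hepatocyte markers was lowest in vehicle 1 and vehicle 3, at 11.63, 12.10, 11.28 and 12.19 in vehicle 1 to 4 and at 11.87 to 12.16 in SSO. Mitochondrially encoded genes took 4.99%, 22.5%, 11.5% and 9.15% of the counts in vehicle and 15.2% to 17.6% in SSO. With those genes left out of the edgeR fit, 0 members were called, 29 were at an unadjusted p under 0.05 and the median was -0.91. The part of the markers and of the mitochondrial shares in the result was not otherwise tested. In whole liver fewer cells of a type and less RNA per cell cannot be told apart.

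**Figure D1:**
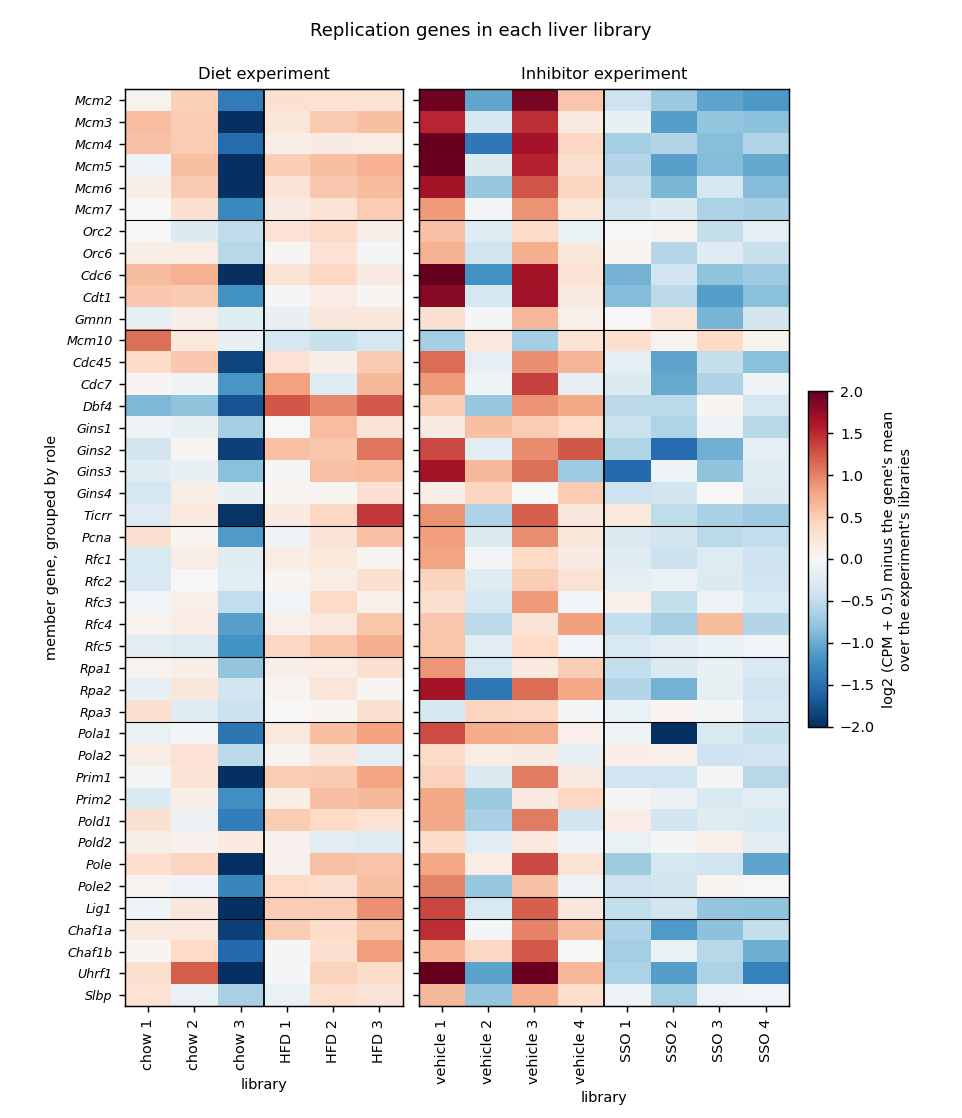
Each row is 1 of the 42 members tested in both experiments, each column a library, and the colour is log2 (CPM + 0.5) minus the gene's mean over the libraries of that experiment, with colours saturating at -2 and 2. In most rows chow 3 is blue and vehicle 1 and vehicle 3 are red. The Mcm10 and Gins4 rows run the other way in vehicle, and Dbf4 changes between chow and HFD.

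**Figure D2:**
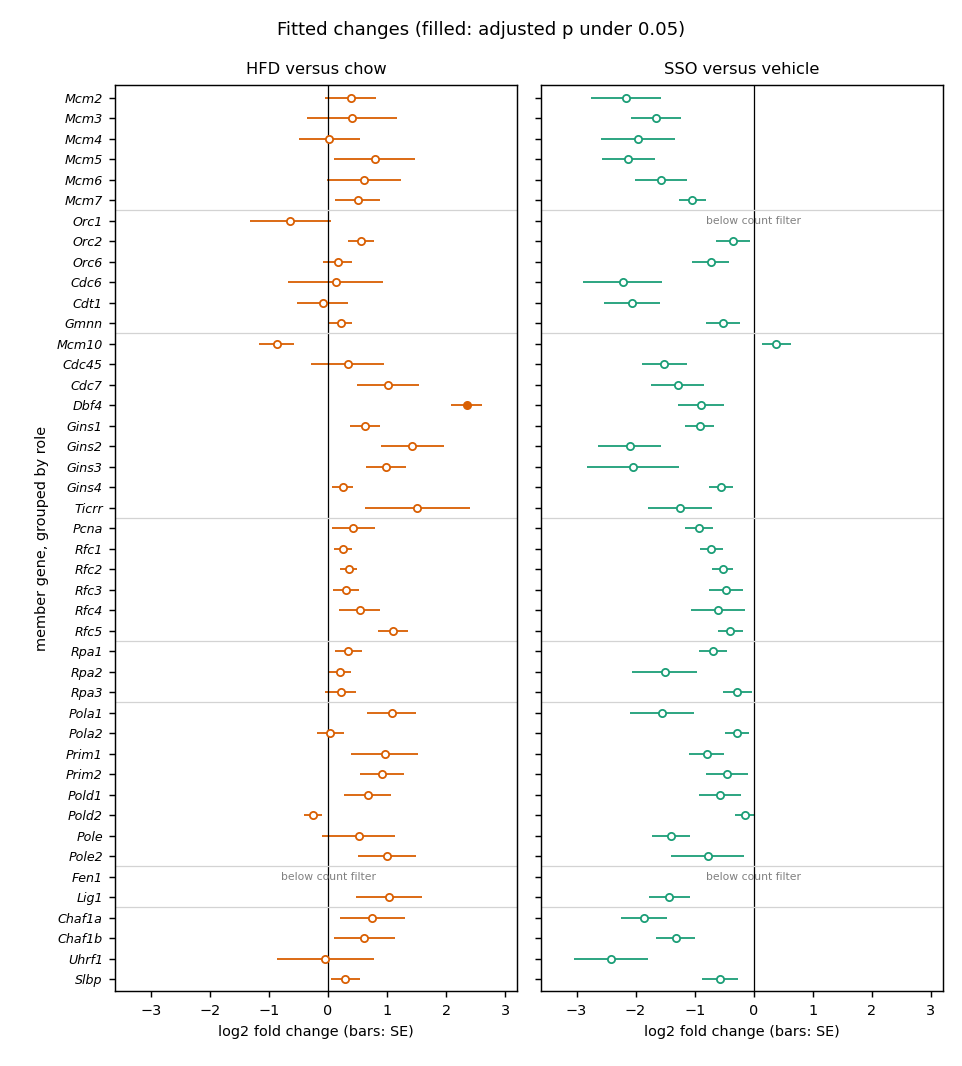
Fitted log2 fold changes with bars of 1 SE, HFD minus chow for 43 members on the left and SSO minus vehicle for 42 on the right, grouped by role. The filled point, Dbf4 at 2.34, is the call at an adjusted p under 0.05; in the inhibitor experiment 41 of 42 points lie left of 0.

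The MCM2-7 helicase is a ring of 6 different subunits that unwinds DNA at the fork. For HFD against chow the 6 log2 fold changes ran from 0.02 (Mcm4) to 0.79 (Mcm5) with a median of 0.45 (0.070 without chow 3), and none was called. Mcm7, with the smallest p of the ring, was at 34.6, 43.8 and 13.95 CPM in chow 1 to 3 and at 39.2, 42.1 and 49.4 CPM in HFD 1 to 3. Chow 2 thus lay within the HFD range and chow 3 far below it. The log2 fold change was 0.50 ± 0.38 (SE; n = 3 and 3; edgeR adjusted p = 0.606), and 0.15 without chow 3.

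With SSO the ring's log2 fold changes ran from -2.16 (Mcm2) to -1.04 (Mcm7), with a median of -1.81 (-0.63 without vehicle 1 and vehicle 3), and 6 of 6 had an unadjusted p under 0.05. Mcm5 was at 41.5, 8.35, 30.6 and 12.99 CPM in vehicle 1 to 4 and at 6.69, 4.59, 5.38 and 4.79 CPM in SSO 1 to 4. The lowest vehicle library stood above the highest SSO library, and the vehicle libraries spanned a 4.98-fold range. The mean was 23.4 ± 15.4 CPM in vehicle and 5.36 ± 0.945 CPM in SSO (SD, n = 4), a log2 fold change of -2.12 ± 0.45 (SE; edgeR adjusted p = 0.0866). It was -0.995 without vehicle 1 and vehicle 3. Mcm4, which had the widest spread of all members in vehicle, was at 33.0, 2.50, 24.9 and 10.2 CPM there, so that vehicle 2 lay below each SSO library (3.96 to 4.88 CPM).

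Because the MCM genes were high and low in the same libraries, their promoters were read for known letters. The RefSeq promoter table (build GRCm38.p6; 250 bases before the start to 50 after it) matched 36 of the 44 members. Mcm4, Pole, Gins1, Gins2, Gins4, Gmnn, Prim2 and Rfc2 had no entry and were not searched. Searched on both strands were the E2F letters TTTCCCGC, TTTCGCGC, TTTGCCGC and TTTGGCGC, the CCAAT box bound by NF-Y, and TTTGAA, the letters of the CHR element common in promoters of mitotic genes. The E2F letters can overlap each other on opposite strands. The 250 bases before the Mcm5 start are printed, with the overlapping E2F letters and CCAAT in capitals, beside those of Mcm10, the member above 0 with SSO, in which the capitals mark CCAAT. None of the E2F letters is in the Mcm10 promoter, nor in those of 22 matched members in all, Mcm2, Pcna and Chaf1a among them, so their absence does not set Mcm10 apart.
Mcm5, chr8:75109259-75109508, plus strand: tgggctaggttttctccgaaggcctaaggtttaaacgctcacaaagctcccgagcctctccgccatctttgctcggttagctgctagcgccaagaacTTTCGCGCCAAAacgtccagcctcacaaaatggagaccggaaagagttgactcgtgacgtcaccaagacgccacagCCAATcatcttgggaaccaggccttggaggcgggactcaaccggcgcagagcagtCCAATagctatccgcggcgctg
Mcm10, chr2:5012792-5013041, minus strand: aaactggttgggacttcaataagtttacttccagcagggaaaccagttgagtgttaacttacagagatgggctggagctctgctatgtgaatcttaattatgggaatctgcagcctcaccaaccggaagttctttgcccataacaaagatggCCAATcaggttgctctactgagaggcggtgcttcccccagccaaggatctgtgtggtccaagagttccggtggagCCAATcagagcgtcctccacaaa

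The E2F letters stood in the promoters of 14 of the 36 matched members (38.9%), against 2.6% of all 27025 symbols in the table and 2.26% of its 32851 promoters. These members were Cdc6, Cdt1, Gins3, Lig1, Mcm3, Mcm5, Mcm6, Mcm7, Orc1, Pola1, Pold1, Pole2, Rfc3 and Uhrf1. CCAAT was in 24 (66.7%), against 41.1% of symbols, and TTTGAA in 7 (19.4%), against 20.2% of symbols. The windows of 30 bases around the letters, in capitals, are printed, with 1 match each, for the other MCM2-7 subunits that hold them and for Cdc6, Cdt1 and Uhrf1, which were high and low in the same libraries. Dbf4, the member called on HFD, holds none of them; its capitals are TTTGAA read on the other strand, which Cdc7, Cdc45, Fen1, Gins3, Mcm2 and Pold2 hold too.
Mcm3, chr1:20820275-20820304, minus strand: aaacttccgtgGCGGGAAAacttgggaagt
Mcm6, chr1:128359797-128359826, minus strand: tggcgtatgctTTTGGCGCgaaaagtgcgt
Mcm7, chr5:138171849-138171878, minus strand: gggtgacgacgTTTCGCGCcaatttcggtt
Cdc6, chr11:98908002-98908031, plus strand: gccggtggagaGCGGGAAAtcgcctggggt
Cdt1, chr8:122568035-122568064, plus strand: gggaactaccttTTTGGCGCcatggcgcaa
Uhrf1, chr17:56304117-56304146, plus strand: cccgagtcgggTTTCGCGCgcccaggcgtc
Dbf4, chr5:8422702-8422731, minus strand: gcgtgacgcgttTTCAAAtctttaaccgcc

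The 13 tested members with the E2F letters had a median log2 fold change of -1.57 for SSO against vehicle, and the 21 matched members without them -0.73. For HFD against chow the medians were 0.55 over 14 members and 0.38 over 21. The ranges overlapped in both comparisons: -2.41 to -0.47 with the letters and -2.16 to 0.38 without them for SSO. These are descriptions of letters in fixed windows, with no test, and say nothing of binding.

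Origin recognition and licensing covers the complex that marks origins (Orc1, Orc2, Orc6), the loaders Cdc6 and Cdt1, and geminin (Gmnn), which blocks Cdt1 after licensing. For HFD the 6 log2 fold changes ran from -0.64 (Orc1) to 0.56 (Orc2) with a median of 0.15 (-0.23 without chow 3). Orc2 was at 5.65, 4.58 and 3.81 CPM in chow and at 7.00, 7.50 and 6.17 CPM in HFD, so the HFD libraries were all above the chow libraries (log2 fold change 0.56 ± 0.22, SE; edgeR adjusted p = 0.280). Of its exon length 29.8% overlaps Nif3l1 on the other strand, and strand use in counting is not given, which makes its level uncertain.

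In the control groups the loaders varied widely between libraries, and Orc2 and Gmnn little. Cdc6 was at 5.67, 5.94 and 0.369 CPM in chow, a 16.1-fold range, against 4.301, 4.84 and 4.02 CPM in HFD; it and other members named outside the smallest p of their role were picked after their values were seen. With SSO the licensing genes ran from -2.22 (Cdc6) to -0.35 (Orc2), median -0.73 over the 5 tested (-0.26 without vehicle 1 and vehicle 3). Cdt1 was at 28.8, 5.99, 26.0 and 8.88 CPM in vehicle and at 4.01, 5.24, 3.35 and 4.11 CPM in SSO. The groups did not overlap, though vehicle 2 came close to SSO 2 (log2 fold change -2.06 ± 0.47, SE; edgeR adjusted p = 0.0973; -0.83 without vehicle 1 and vehicle 3). Gmnn was at 10.9985, 8.62, 14.3 and 9.43 CPM in vehicle and 8.80, 10.5, 4.35 and 6.69 CPM in SSO, with overlapping groups and a wider spread in SSO than the loaders had.

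Among the genes of helicase activation and firing, Dbf4 set itself apart. It was at 5.42, 5.86 and 2.86 CPM in chow and at 25.6, 21.1 and 25.3 CPM in HFD. Each HFD library was above each chow library, and the groups were far apart relative to their spread (mean 4.71 ± 1.62 and 24.0 ± 2.51 CPM; SD, n = 3). The log2 fold change was 2.34 ± 0.26 (SE; edgeR adjusted p = 0.00347), and it was called under each of 12 alternative settings, with log2 fold changes of 2.09 to 2.53 and adjusted p-values of 1.37e-15 to 0.0279. Its kinase partner Cdc7 was at 1.64, 1.46 and 0.430 CPM in chow and at 3.14, 1.27 and 2.78 CPM in HFD, with overlapping groups (log2 fold change 1.01 ± 0.53, SE; edgeR adjusted p = 0.423; 0.62 without chow 3).

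The other firing genes had log2 fold changes on HFD between 0.25 (Gins4) and 1.51 (Ticrr; 0.96 without chow 3), apart from Mcm10. The GINS subunits Gins1, Gins2 and Gins3, parts of the active helicase, were higher in each HFD library than in each chow library, with log2 fold changes of 0.63, 1.43 and 0.98 and edgeR adjusted p-values of 0.283, 0.264 and 0.217. Gins2 shares 67.3% of its exon length with Gse1 on the other strand, so its counts cannot be separated from that gene. Ticrr, which helps to load Cdc45, ranged from 0.0615 CPM in chow 3, under the 3-count floor, to 5.35 CPM in HFD 3.

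With SSO 8 of the 9 firing genes had an unadjusted p under 0.05 and were lower, and the group's median was -1.25 (-0.75 without vehicle 1 and vehicle 3). Cdc45, which joins MCM2-7 to form the moving helicase, was at 7.60, 2.81, 6.61 and 5.48 CPM in vehicle and at 2.79, 1.31, 2.17 and 1.61 CPM in SSO. The lowest vehicle library, vehicle 2, was only just above the highest SSO library, SSO 1 (log2 fold change -1.51 ± 0.38, SE; edgeR adjusted p = 0.109; -1.08 without vehicle 1 and vehicle 3). Gins1 was steadier, at 6.14, 8.40, 7.81 and 7.27 CPM in vehicle and at 3.86, 3.39, 4.96 and 3.50 CPM in SSO. Its fold change of -0.91 ± 0.24 on the log2 scale (SE; edgeR adjusted p = 0.111) was -0.99 without vehicle 1 and vehicle 3. Dbf4, higher on HFD, was at 5.65, 2.09, 7.65 and 6.96 CPM in vehicle and at 2.56, 2.51, 3.99 and 2.97 CPM in SSO, with overlapping groups (log2 fold change -0.89 ± 0.39, SE; edgeR adjusted p = 0.233).

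Mcm10, a scaffold of the fork that is not part of the MCM2-7 ring, had a fitted value below 0 on HFD, as 4 other members had, and was the 1 member with a fitted value above 0 with SSO. It was at 86.6, 46.5 and 35.6 CPM in chow and at 31.5, 29.5 and 31.2 CPM in HFD, each HFD library below each chow library (log2 fold change -0.87 ± 0.30, SE; edgeR adjusted p = 0.230). Without chow 3 the log2 fold change was -1.12 (edgeR adjusted p = 0.0601; over 12 alternatives, 0.0423 to 0.498). In vehicle it was at 14.004, 26.3, 13.96 and 27.6 CPM, lowest in the libraries where the ring subunits were highest. Gins4 was also lowest in vehicle 1 and vehicle 3, at 12.4, 15.6, 11.5 and 16.5 CPM in vehicle 1 to 4. In SSO Mcm10 was at 28.8, 23.8, 30.1 and 23.8 CPM, a log2 fold change of 0.38 ± 0.25 (SE; edgeR adjusted p = 0.399), which was -0.015 without vehicle 1 and vehicle 3. No exon of Mcm10 (chr2:4989714-5012791, minus strand, GRCm38) overlaps another gene in GENCODE M21.

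**Figure D3:**
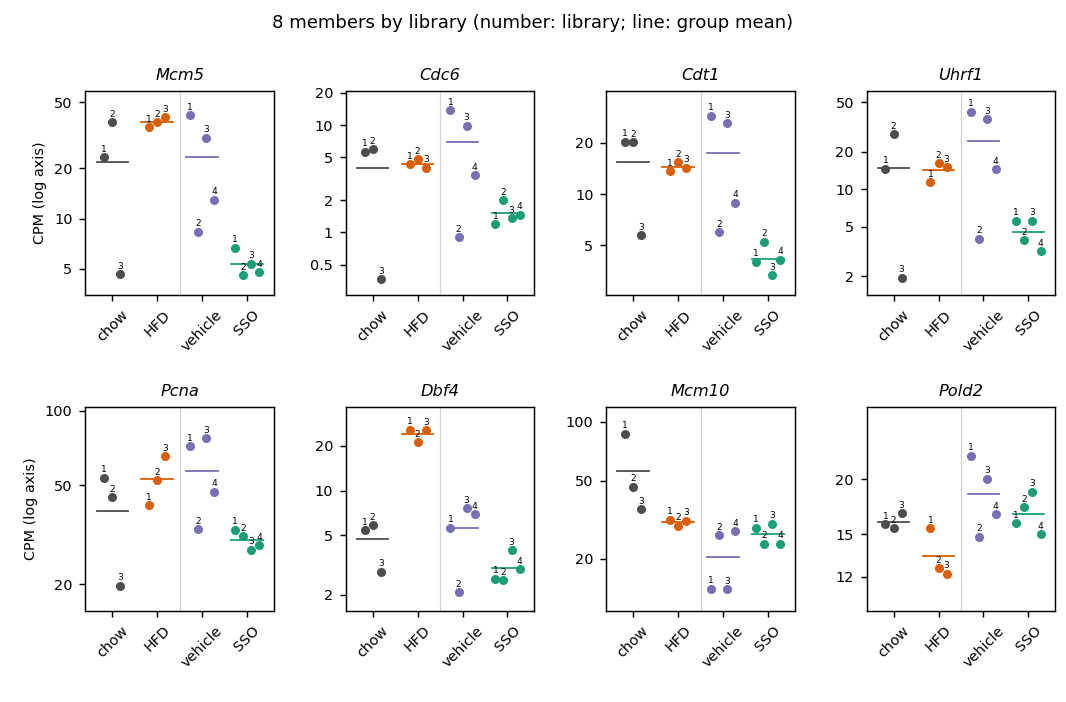
CPM on a log axis, its range set for each panel, for 8 members in every library; points carry the library number and lines are group means. Mcm5, Cdc6, Cdt1 and Uhrf1 share the low chow 3 and the high vehicle 1 and vehicle 3, Dbf4 is separated by diet (2.86 to 5.86 against 21.1 to 25.6 CPM), Mcm10 runs the other way in vehicle, and Pold2 stays between 12.2 and 22.6 CPM.

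PCNA is the ring that holds polymerases on DNA, and replication factor C (Rfc1 to Rfc5) opens it. On HFD the 6 log2 fold changes were between 0.26 and 1.10, with a median of 0.39 (0.20 without chow 3). Rfc5 was at 13.2, 13.001 and 6.52 CPM in chow and at 21.1, 23.1 and 26.1 CPM in HFD, groups that did not overlap (log2 fold change 1.10 ± 0.26, SE; edgeR adjusted p = 0.0713). Without chow 3 it was 0.83 and called (edgeR adjusted p = 0.0264; over 12 alternatives, 0.00203 to 0.235), and it was also called by DESeq2 and without the filter on low counts. Of its exon length 10.7% overlaps Wsb2 on the other strand. Rfc2, for which the groups also did not overlap, differed less (log2 fold change 0.35 ± 0.14, SE; edgeR adjusted p = 0.278).

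With SSO the clamp and loader genes ran from -0.93 (Pcna) to -0.40 (Rfc5), a narrower set than the helicase, with a median of -0.56 (-0.36 without vehicle 1 and vehicle 3). Pcna was at 71.9, 33.3, 77.4 and 47.2 CPM in vehicle and at 33.1, 31.2, 27.6 and 28.8 CPM in SSO. The groups did not overlap, but vehicle 2 and SSO 1 were nearly equal (log2 fold change -0.93 ± 0.24, SE; edgeR adjusted p = 0.111; -0.42 without vehicle 1 and vehicle 3). Rfc1, the large subunit, was at 29.4, 16.5, 22.2 and 18.7 CPM in vehicle and at 14.1, 12.3, 13.9 and 12.5 CPM in SSO, again without overlap (log2 fold change -0.72 ± 0.20, SE; edgeR adjusted p = 0.111; -0.42 without vehicle 1 and vehicle 3).

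RPA coats the single strands that the helicase leaves behind. On HFD its subunits had log2 fold changes of 0.20 to 0.34 and none passed the test. Rpa1 was at 38.0, 39.8 and 20.8 CPM in chow and at 39.3, 40.2 and 45.6 CPM in HFD, with overlapping groups and only chow 3 apart (log2 fold change 0.34 ± 0.23, SE; edgeR adjusted p = 0.538; 0.10 without chow 3). With SSO it was at 16.4, 19.0, 20.9 and 18.7 CPM against 43.0, 18.2, 26.6 and 32.7 CPM in vehicle, where vehicle 2 lay within the SSO range (log2 fold change -0.68 ± 0.24, SE; edgeR adjusted p = 0.155; -0.44 without vehicle 1 and vehicle 3). Rpa2 varied more than its partners in vehicle, at 19.0, 1.77, 12.8 and 9.87 CPM, and Rpa3 was not ordered in that way, at 5.78, 9.99, 9.93 and 7.10 CPM.

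Polymerase alpha with primase (Pola1, Pola2, Prim1, Prim2) starts new strands, and polymerases delta (Pold1, Pold2) and epsilon (Pole, Pole2) extend them. On HFD 7 of the 8 were above 0, with a median of 0.79 (0.40 without chow 3). Pola1, the catalytic subunit, was at 3.77, 4.08 and 1.23 CPM in chow and at 4.96, 6.59 and 7.68 CPM in HFD, without overlap (log2 fold change 1.08 ± 0.42, SE; edgeR adjusted p = 0.269; 0.70 without chow 3). Its partner Pola2 was at 13.9, 15.3 and 8.39 CPM in chow and 12.96, 14.6 and 10.99 CPM in HFD, with a log2 fold change of 0.04. Subunits of 1 enzyme thus had different values: Pold1 differed by 0.67 (0.30 without chow 3), and Pold2 by -0.26, on the log2 scale. Neither passed the test.

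Pole, the catalytic subunit of polymerase epsilon, had the smallest p of this role with SSO, where the role's median was -0.68 (-0.12 without vehicle 1 and vehicle 3). It was at 12.8, 8.12, 19.1 and 8.95 CPM in vehicle and at 4.27, 5.61, 5.42 and 3.25 CPM in SSO. The groups did not overlap (log2 fold change -1.40 ± 0.31, SE; edgeR adjusted p = 0.0899; -0.88 without vehicle 1 and vehicle 3). Pold2 lay at the other end, with 22.6, 14.8, 20.03 and 16.7 CPM in vehicle and 15.9, 17.3, 18.7 and 14.98 CPM in SSO (log2 fold change -0.15 ± 0.18, SE; edgeR adjusted p = 0.652). It also had the smallest spread of all members in chow, at 15.8, 15.5 and 16.8 CPM.

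DNA ligase 1 (Lig1) seals Okazaki fragments and was the tested gene of its role in both experiments. It was at 11.99, 15.1 and 2.74 CPM in chow and at 18.2, 18.2 and 24.5 CPM in HFD. The groups did not overlap, and chow 3 widened the chow spread (log2 fold change 1.03 ± 0.56, SE; edgeR adjusted p = 0.468; 0.58 without chow 3). In vehicle it was at 27.1, 8.35, 24.7 and 12.2 CPM and in SSO at 7.24, 7.94, 5.88 and 5.79 CPM. There was no overlap, with vehicle 2 next to SSO 2 (log2 fold change -1.43 ± 0.35, SE; edgeR adjusted p = 0.106; -0.62 without vehicle 1 and vehicle 3).

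Chaf1a and Chaf1b are subunits of the histone chaperone CAF-1, Uhrf1 recruits the maintenance DNA methyltransferase to new DNA, and Slbp binds the histone mRNAs of S phase. Chaf1a had the smallest p of the role in both comparisons. It was at 7.01, 7.09 and 1.29 CPM in chow and at 8.79, 7.92 and 9.25 CPM in HFD, without overlap (log2 fold change 0.75 ± 0.55, SE; edgeR adjusted p = 0.585; 0.29 without chow 3). In vehicle it was at 9.61, 3.09, 6.70 and 5.004 CPM and in SSO at 1.86, 1.16, 1.57 and 2.11 CPM, also without overlap (log2 fold change -1.86 ± 0.39, SE; edgeR adjusted p = 0.0789; -1.27 without vehicle 1 and vehicle 3). As 52.5% of its exon length overlaps Ubxn6 on the other strand, its level is uncertain; Chaf1b, with no such overlap, had -1.32 ± 0.33 (SE; edgeR adjusted p = 0.106; -0.85 without vehicle 1 and vehicle 3).

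Uhrf1 had the largest fitted difference of the members with SSO, and a wide spread in both control groups. It was at 42.01, 3.99, 36.5 and 14.5 CPM in vehicle and at 5.57, 3.90, 5.56 and 3.18 CPM in SSO, so vehicle 2 fell within the SSO range (log2 fold change -2.41 ± 0.63, SE; edgeR adjusted p = 0.111; -1.03 without vehicle 1 and vehicle 3). In chow it was at 14.6, 27.5 and 1.94 CPM, a 14.2-fold range, around the HFD values of 11.4, 16.2 and 15.1 CPM. Slbp was at 20.6, 15.3 and 10.5 CPM in chow and 15.3, 21.4 and 20.2 CPM in HFD, and its log2 fold change with SSO was -0.57 ± 0.31 (SE; edgeR adjusted p = 0.314; -0.10 without vehicle 1 and vehicle 3).

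The members as a set showed which libraries stood apart. Of 43 members tested in the diet experiment, 39 had their lowest chow value in chow 3, where 34.6% of all genes did. The mean log2 (CPM + 0.5) of the members was 3.38, 3.50 and 2.13 in chow 1 to 3 and 3.51, 3.62 and 3.74 in HFD 1 to 3, so chow 1 and chow 2 were close to the HFD libraries. Beside this, chow 3 had the highest summed markers of its group for erythroid cells (299, 297 and 540 CPM, with 6, 7 and 7 of the 7 genes with counts), for Kupffer cells (126, 249.7 and 297 CPM, 8 of 8 with counts) and for endothelium (94.98, 114 and 153 CPM, 7 of 7 with counts). Cholangiocyte markers were lowest in chow 3 (88.0, 78.6 and 56.6 CPM), and stellate cell markers were alike (317, 316 and 325 CPM). B cell markers and T and NK cell markers were not highest in chow 3. Monocyte and neutrophil markers summed to 18.5, 33.1 and 31.9 CPM, most of it Lyz2 (15.6, 26.5 and 20.7 CPM). Their mean log2 (CPM + 0.5) was highest in chow 3, at 0.62, 1.27 and 1.83 in chow 1 to 3. The sum of the hepatocyte markers was lowest in chow 3 through Alb (49614, 55072 and 30839 CPM), while Tat was highest there (1127, 1777 and 2469 CPM) and the mean log2 (CPM + 0.5) of the 7 genes was 11.90, 11.91 and 11.84. In HFD 1 to 3 that mean was 11.39, 11.52 and 11.215, below each chow library. Of the 7 genes, 5 had a log2 fold change below 0 on HFD and 2 above, and Tat was called lower (edgeR adjusted p = 0.0300). The part of these markers in the result was not tested. In the inhibitor experiment 33 of 42 members were lowest of the vehicle group in vehicle 2, against 33.7% of all genes, and 23 were highest in vehicle 1 and 14 in vehicle 3, against 24.9% and 23.3%. Of the 42, 32 were higher in both vehicle 1 and vehicle 3 than in both others, against 28.7%. The means were 3.91, 2.68, 3.84 and 3.23 in vehicle 1 to 4 and 2.45 to 2.63 in SSO, which places vehicle 2 just above the SSO libraries.

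Genes of mitosis did not follow the replication genes in the same proportion. The list of 30 mitosis genes had mean values of 2.43, 1.61 and 1.52 in chow and 4.91, 4.65 and 5.22 in HFD. Minus the members' mean this was -0.95, -1.89 and -0.61 in chow and 1.40, 1.03 and 1.48 in HFD, so the groups did not overlap in this difference of log2 means. In the test, 27 of the 30 were called higher on HFD (median log2 fold change 3.18), where 1.6% of all genes were. When 1 library was left out, 16 to 29 were called. In vehicle the difference was -1.03, -1.15, -0.81 and -0.13, and in SSO it was between -1.14 and -0.94. Vehicle 4 was the one with the most mitosis transcripts for its replication transcripts, and the other vehicle libraries were near or within the SSO range.

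**Figure D4:**
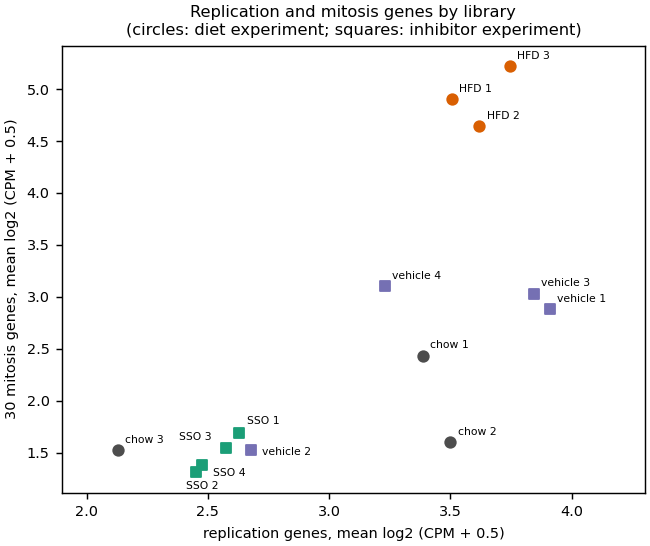
Each point is a library; the x axis is the mean log2 (CPM + 0.5) of the members tested in that experiment and the y axis that of 30 mitosis genes. On the x axis chow 1 and chow 2 (3.38 and 3.50) lie just left of the HFD libraries (3.51 to 3.74), which lie above 4.6 on the y axis, while vehicle 2 lies with the 4 SSO libraries.

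The members varied more between libraries than other genes did in both control groups, and about as much as other genes in HFD and SSO. The median SD of log2 (CPM + 0.5) was 0.69 in chow for the members and 0.25 for all genes tested, and 0.57 and 0.41 in vehicle. In HFD it was 0.18 for both, and in SSO 0.25 and 0.23. Chow spread ran from 0.06 in Pold2 to 1.83 in Uhrf1, and vehicle spread from 0.18 in Gins1 to 1.57 in Mcm4. Of the 10 members with the widest spread in chow and the 10 in vehicle, 6 were in both sets (Cdc6, Mcm3, Mcm4, Mcm5, Mcm6 and Uhrf1), and of the 10 narrowest 7 were (Gins1, Gins4, Gmnn, Orc2, Pold2, Rfc1 and Rfc2).

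Across the 42 members tested in both experiments, the SD in chow and the SD in vehicle had a Pearson r of 0.61 and a Spearman rho of 0.66. The SD in chow and the log2 fold change for SSO had r = -0.70 and rho = -0.71: members that varied more between the chow livers tended to be lower with SSO. The experiments share no library, but the points share their mean level (r = 0.93 between chow and vehicle), and genes are not independent replicates, so these values describe the members only. The log2 fold changes of the 2 experiments had r = -0.19 and rho = -0.16.

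**Figure D5:**
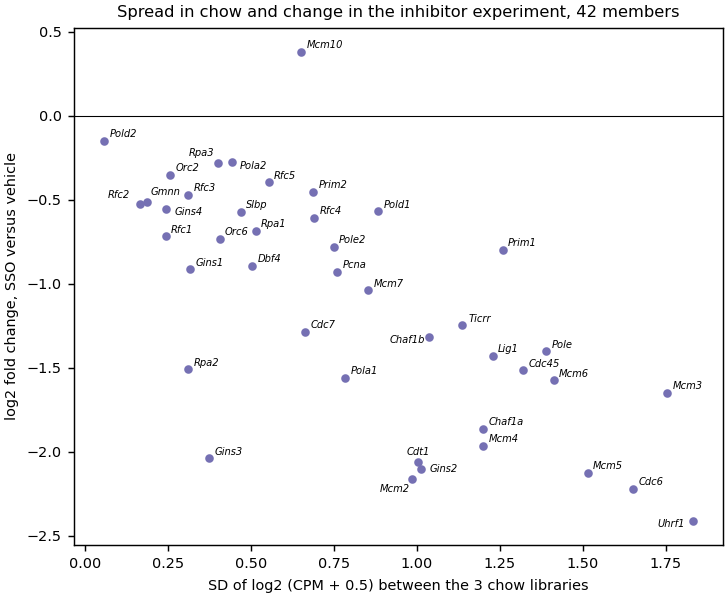
Each point is 1 of the 42 members tested in both experiments; the x axis is the SD of log2 (CPM + 0.5) between the 3 chow libraries and the y axis the log2 fold change for SSO minus vehicle. Uhrf1, Cdc6 and Mcm5 lie at the lower right and Pold2 at the upper left; Gins3 and Rpa2 were low with SSO without a wide chow spread.

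Per kilobase of exon, Pcna was the most abundant member in each group, at 16.5, 22.2, 23.9 and 12.6 CPM per kb in chow, HFD, vehicle and SSO. Gins4 and Pold2 followed in chow and in vehicle. Among the MCM2-7 subunits, which form 1 ring in equal number, Mcm2 had the lowest level per kb in each group, at 2.13, 2.78, 3.53 and 0.789 CPM per kb. The highest was Mcm7 in chow (6.95), vehicle (7.44) and SSO (3.62) and Mcm6 in HFD (9.94). The ratio of the highest to the lowest was 3.26 in chow, 3.57 in HFD, 2.11 in vehicle and 4.59 in SSO. Exon length counts every annotated exon, so transcripts shorter than that have understated levels. For Mcm2 that length was 6956 bases, against 3589 (Mcm4) to 4666 (Mcm6) for the other subunits, and its rank and the ratios depend on it. In mean CPM the lowest subunit was Mcm2 in chow (14.8) and Mcm4 in HFD, vehicle and SSO (17.7, 17.7 and 4.53).

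Other genes of the pathway were taken from lists. Of 38 further replication factors tested, 0 were called by edgeR's quasi-likelihood test in either comparison. At an unadjusted p under 0.05, 5 were higher and 1 lower on HFD (median log2 fold change 0.24), against 7.52% and 7.47% of all genes. With SSO 0 were higher and 10 lower (median -0.39), against 7.96% and 12.5% of all genes. The smallest p on HFD belonged to the histone-fold subunits of polymerase epsilon, with values in opposite directions: Pole4 was at 32.9 ± 2.65 in chow and 22.2 ± 1.42 CPM in HFD, and Pole3 at 22.7 ± 2.64 and 34.8 ± 3.24 CPM (SD, n = 3; edgeR adjusted p = 0.0534 and 0.0573). With SSO it was Topbp1, which activates the checkpoint kinase ATR and helps to fire origins, at 24.1 ± 9.54 in vehicle and 12.5 ± 0.885 CPM in SSO, and Mcmbp, an MCM-binding protein, at 30.8 ± 6.18 and 20.4 ± 2.47 CPM (SD, n = 4; edgeR adjusted p = 0.111 and 0.124).

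Of 15 genes of nucleotide synthesis, 1 was called higher on HFD, where 1.6% of all genes were. It was the thymidylate synthase gene Tyms, which rose from 9.58 ± 3.01 to 23.7 ± 6.01 CPM (SD, n = 3; edgeR adjusted p = 0.0488). The call was lost when chow 2 or any 1 HFD library was left out (edgeR adjusted p of 0.0847 to 0.163) and with the replicate block (0.149). Rrm1, the large subunit of ribonucleotide reductase, was at 19.9 ± 9.16 and 38.7 ± 9.72 CPM there (edgeR adjusted p = 0.311). With SSO 0 of the 15 were called and 8 were lower at an unadjusted p under 0.05, against 12.5% of all genes. Rrm1 was at 28.4 ± 10.0 CPM in vehicle and 11.2 ± 1.07 in SSO, and Rrm2, the small subunit, at 21.4 ± 10.3 and 6.56 ± 1.92 CPM (SD, n = 4; edgeR adjusted p = 0.0650 and 0.105). The medians of the list were 0.27 and -0.51.

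Of 12 E2F and pocket protein genes, the transcription factors and brakes of the G1 to S transition, 0 were called on HFD. With SSO 1 was lower at an adjusted p under 0.05, where 0.133% of all genes were. That gene, E2f1, fell from 17.1, 7.94, 15.7 and 10.2 CPM in vehicle to 3.53, 3.75, 2.21 and 3.93 CPM in SSO, groups that did not overlap (log2 fold change -1.92 ± 0.31, SE; edgeR adjusted p = 0.0369). Without vehicle 2 or vehicle 4 the call stood (edgeR adjusted p = 0.00199 and 0.0168), and without vehicle 1, vehicle 3 or any 1 SSO library it was lost (0.103 to 0.138). It was also lost without both vehicle 1 and vehicle 3 (log2 fold change -1.43; edgeR adjusted p = 0.0825), with library size alone (0.0662) and with the replicate block (0.0906). E2f2 was at 6.22 ± 2.76 and 2.93 ± 0.771 CPM (SD, n = 4; edgeR adjusted p = 0.151). On HFD the smallest p belonged to Rbl1, the pocket protein p107, at 5.69 ± 1.83 in chow and 12.2 ± 3.02 CPM in HFD, and E2f4 at 26.1 ± 0.844 and 31.0 ± 0.950 CPM (SD, n = 3; edgeR adjusted p = 0.0963 and 0.346). On that diet 1 of the 12 was higher at an unadjusted p under 0.05, against 7.52% of all genes.

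In the mitosis list the smallest p on HFD belonged to Ect2, needed for cytokinesis, which rose from 4.96 ± 1.21 to 46.8 ± 3.77 CPM, and to the cyclin gene Ccna2, from 4.74 ± 1.09 to 42.8 ± 5.89 CPM (SD, n = 3; edgeR adjusted p = 0.000444 for both). With SSO 2 of the 30 were called lower, where 0.133% of all genes were. They were Cdk1, the mitotic kinase, from 16.1 ± 6.50 to 3.44 ± 1.49 CPM and Ect2 from 8.85 ± 2.85 to 1.52 ± 0.892 CPM (SD, n = 4; edgeR adjusted p = 0.0396 and 0.0462). Both calls were lost without vehicle 1, vehicle 3 or any 1 SSO library (edgeR adjusted p of 0.0724 to 0.174 for Cdk1 and 0.0791 to 0.192 for Ect2), without both vehicle 1 and vehicle 3 (0.0691 and 0.0898), and with library size alone (0.0662 and 0.0674). With the replicate block Cdk1 was called and Ect2 was not (0.0498 and 0.0560). Without vehicle 2, 28 of the 30 were called lower, where 9.23% of all genes were. The list's median was -1.40, beside the members' -0.92. At an unadjusted p under 0.05, 25 of 30 were lower, beside 29 of 42 members and 12.5% of all genes.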

How the data were processed

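Liver RNA was selected with polyT, and the authors deposited raw counts per Ensembl gene in 1 table per experiment. Listed without order in the submitters' processing notes are featureCounts 2.0.2, HISAT2 2.2.1, DESeq2, Trim Galore 0.6.1 and the build GRCm38 (mm10). Strand use, multiply matching reads and the annotation release are not given there. The labels hold 1 record a group, and columns were assigned to groups by their names. Symbols, coordinates (1-based, GRCm38) and exon lengths come from GENCODE M21, which named 55141 of 55487 identifiers. The 12 value columns of another table, of sorted macrophages, were not used here because that table, as given, has no header line.

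Each table was fitted whole with edgeR 4.0.16 in R 4.3.3 (TMM scaling, filterByExpr, robust quasi-likelihood test, Benjamini-Hochberg over all genes tested, called under 0.05). CPM uses TMM-scaled library sizes. The SE of a log2 fold change is its size divided by the square root of the F statistic. No pair of libraries in a group agreed within sampling noise. Floors cover counting error only, since PCR copies are not separate molecules. Alternatives were other scaling, no filter, DESeq2 1.42.0, leaving out mitochondrially encoded genes, a replicate block, and leaving out libraries; the procedure was tested on simulated counts. Of the 44 members, 8 share over 10% of their exon length with a gene on the other strand: Orc1, Orc2, Gins2, Rfc2, Rfc4, Rfc5, Fen1 and Chaf1a.

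Full values are given for members called and for the member with the smallest p in each role and comparison, and from each list for the pair with the smallest p. Members and lists were chosen with earlier results of these data known.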

Additional observations from a re-analysis of the deposited data

Results flagged for a closer look

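Among the members, a single library stood far from the other libraries of its group on a gap test (Dixon's ratio, groups of 4) in 2 cases, both in SSO. Rfc4, a clamp loader subunit, was at 4.67 CPM in SSO 3 and at 1.86, 1.60 and 1.72 CPM in SSO 1, SSO 2 and SSO 4. Slbp, the histone mRNA binding protein, was at 9.06 CPM in SSO 2 and at 13.7, 13.7 and 14.2 CPM in the others. The test was run for each of the 42 members in vehicle and in SSO, and it marks about 1 in 20 groups by chance. The 2 cases are thus no more than chance would mark. Rfc4 shares 12.7% of its exon length with Eif4a2 on the other strand.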

How the results depend on the processing

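On HFD, 249 genes were called higher and 112 lower; the counts were 399 and 273 without a filter on low counts, 496 and 372 in DESeq2, 151 and 55 with a replicate block, 336 and 60 with library size alone, and 76 to 415 and 10 to 266 leaving out 1 library. Members called higher were 2 of 44 without the filter and 3 of 44 in DESeq2 (Dbf4, Gins2 and Rfc5, with Mcm10 as 1 lower). Leaving out 1 library, 1 to 2 of 43 or 44 were. All genes tested in these settings were 26217, 16034 and 16026 to 16215. With SSO, 50 genes were called higher and 21 lower; the counts were 104 and 101 without the filter, 426 and 710 in DESeq2, 33 and 4 with library size alone, 33 and 14 with the replicate block, 0 to 1138 and 0 to 1508 leaving out 1 library (the highest without vehicle 2, 0 without vehicle 1 or any 1 SSO library), and 49 and 13 without vehicle 1 and vehicle 3. Members called lower were 4 of 44 without the filter, 19 of 44 in DESeq2 and 0 to 27 of 42 or 43 leaving out 1 library. All genes tested in these settings were 26762, 17896 and 16142 to 16339. Called lower were 3.97% of all genes in DESeq2 and 9.23% without vehicle 2. The cause of these differences was not tested. Directions that turned on HFD, as ranges leaving out 1 library, were Mcm2 (-0.0041 to 0.80), Mcm3 (-0.11 to 0.80), Mcm4 (-0.41 to 0.34), Orc6 (-0.049 to 0.29), Cdc6 (-0.41 to 0.53), Cdc45 (-0.15 to 0.74), Pola2 (-0.18 to 0.21), Cdt1 (-0.49 to 0.16; 0.032 with library size alone, 0.088 with the block) and Uhrf1 (-0.57 to 0.78; 0.071 and 0.43). With SSO, without vehicle 1 and vehicle 3, Orc2 was at 0.066, Mcm10 at -0.015, Rfc3 at 0.0087, Pold1 at 0.33, Pold2 at 0.088 and Pole2 at 0.41. Library size alone moved the median of all genes from -0.02 to 0.13 on HFD and from -0.04 to -0.20 with SSO, and that of the members to 0.56 and -1.14. The block changed no member's call. Same-numbered libraries deviated together with correlations of -0.12 to 0.02 and -0.10 to 0.05. Of the libraries, 0 of 6 and 2 of 8 correlated best with their own number. No sign of pairing by number was seen, but so few libraries a group cannot exclude it. Low counts limited members with under 1 CPM in some libraries, among them Orc1, Ticrr, Pole2 and Fen1. For Fen1, low expression and reads lost to the overlap on the other strand cannot be told apart.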
